A study of Mus musculus with 8 samples.

Results

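The 9 genes described here make, break down, bind or respond to retinoic acid, or belong to the same receptor superfamily: Aldh1a3, Dhrs3, Cyp26b1, Crabp2, Rara, Rarg, Rxra, Rora and Vdr. They were chosen by name, with earlier results of these libraries in view, in which Cyp26b1 and Rora were lower in Msx2-KO HFSCs. The series as a whole covered 24755 gene symbols. All 9 had a row among the 23861 symbols measured in hair follicle stem cells (HFSCs), and 8 had one among the 16231 measured in epidermal stem cells (EpdSCs), where Aldh1a3 was not analysed.

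Retinoic acid is made from vitamin A in steps: retinol is oxidised to retinal, retinal is oxidised to retinoic acid, and CYP26 enzymes then break retinoic acid down. It acts through retinoic acid receptors (RARs), which pair with retinoid X receptors (RXRs) on DNA. RXRs are also the partners of the vitamin D receptor, whereas ROR receptors bind DNA mostly as monomers. In skin these receptors are known for their part in the differentiation of keratinocytes and in the hair cycle.

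The study compared Msx2-KO mice, which carry a neo cassette inserted upstream of exon 2 of the transcription factor gene Msx2, with C57BL/6J wild-type (WT) mice in telogen, the resting phase of the hair cycle. Bulk total RNA was sequenced from sorted dorsal skin cells, HFSCs gated as CD34+CD49f+Sca-1- and EpdSCs gated as CD34-CD49f+Sca-1+. There were 2 libraries each of WT HFSCs (2 months of age), Msx2-KO HFSCs (6 months), WT EpdSCs (6 months) and Msx2-KO EpdSCs (6 months). In HFSCs age and genotype therefore cannot be told apart. Nothing in the labels says whether the libraries of a group came from separate mice. Library names also fall in separate series for WT and Msx2-KO in both cell types, and the sample titles do not say what these mark.

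The targeted gene did not separate the groups. Msx2 stood at 43.3 and 13.8 normalized counts in the WT HFSC libraries and at 26.7 and 23.4 in those labelled Msx2-KO, and in EpdSCs at 58.5 and 85.4 against 150.3 and 22.2. An inserted cassette need not lower counts over the whole gene, so these values check neither label. HFSC libraries held 3132974 to 11016659 estimated counts, of which mitochondrial ribosomal RNA took 8.94% to 53.2%, and the 2 labelled Msx2-KO detected 11409 and 14251 genes against 22447 and 19595 in WT. Across genes, the WT libraries of HFSCs were close to each other (r = 0.94), whereas the 2 labelled Msx2-KO (r = 0.63) were no closer to each other than to WT (r = 0.65 to 0.68). In EpdSCs mitochondrial ribosomal RNA took 23.5% and 16.4% of the summed values in WT, 0.073% in Msx2-KO replicate 1 and 6.18% in replicate 2, and 12720 genes were detected in Msx2-KO replicate 1 against 15165 to 15935 in the other 3 libraries. The corresponding values of r were 0.95 for WT, 0.84 for Msx2-KO and 0.61 to 0.74 between genotypes.

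The sorted populations also differed in the marker genes of other skin cells. In HFSCs labelled Msx2-KO, all 6 measured sebaceous gland markers were higher than in both WT libraries, and their summed level was 7855 and 5897 normalized counts against 220.4 and 211. Of 7 suprabasal epidermis markers, 5 were higher, with a sum of 4595 and 17428 against 1046 and 1220.1. Of 7 bulge and hair germ markers, 6 were lower, with a sum of 19716 and 21396 against 36394 and 34969, and Cd34, the gene of the sorted surface protein, stood at 1084 and 879 against 3004 and 2670.1. The 4 measured fibroblast markers were all lower, with a sum of 165 and 75.3 against 297 and 394. Of these, Pdgfra (25 and 3 counts in WT) and Pdgfrb (5 and 1) rested on few counts and were at 0 in both Msx2-KO libraries. Over all HFSC genes tested, both Msx2-KO libraries lay below both WT libraries in 33.5% and above in 17.5%. In EpdSCs 5 of 7 suprabasal markers were lower in both Msx2-KO libraries and none higher, with a sum of 42672 and 72214 against 272064 and 193459. Of 5 basal epidermis markers, 2 were higher (Krt5 and Krt14), 1 lower (Itgb4) and 2 overlapped, with a sum of 603930 and 496179 against 238003 and 284007. Of 4 measured sebaceous gland markers, 2 were higher and 1 lower, with a sum of 23826 and 10281 against 3881 and 4674. Their part in the results that follow was not tested, and in bulk samples fewer cells of a type and less RNA per cell cannot be told apart.

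**Figure D1:**
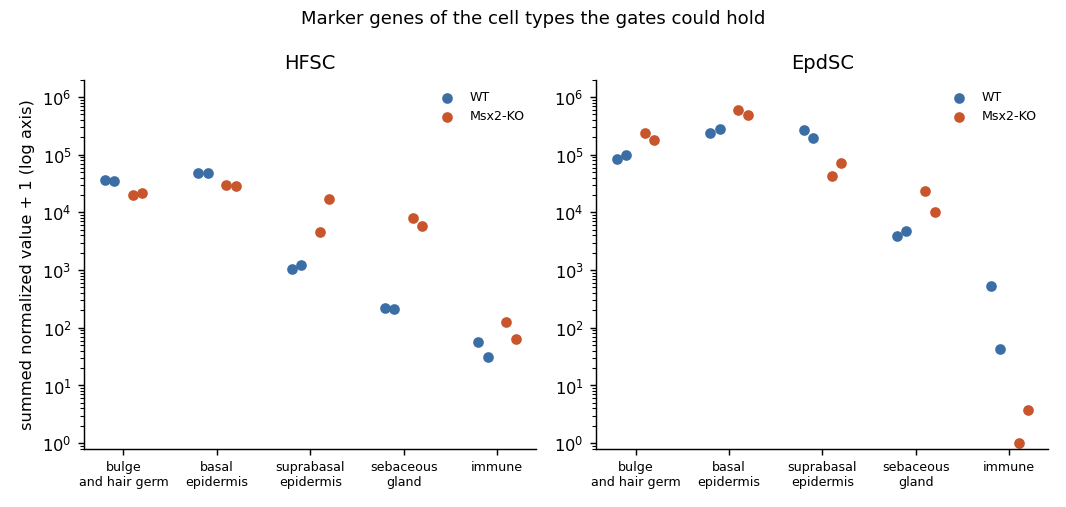
Summed normalized values plus 1 (log axis) of marker genes for 5 cell types in each HFSC library (left) and EpdSC library (right); each point is 1 library, WT in blue and Msx2-KO in orange. The sebaceous gland sums of 7855 and 5897 in Msx2-KO HFSCs stand above the WT sums of 220.4 and 211.

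The upstream sequences of Cyp26b1 and Rora are shown first because these are the members with the largest counts among those that were lower in Msx2-KO HFSCs. Promoter windows from RefSeq (GRCm38.p6) were matched for 7 of the 9 members, and Crabp2 and Aldh1a3 had none. The bases are those before the annotated start of each gene, written 5′ to 3′ on the strand of the gene, with matches to the retinoid receptor half-sites AGGTCA and AGTTCA or to the TATA box core TATAAA, on either strand, in capitals.
Cyp26b1, chr6:84593909-84594060, minus strand: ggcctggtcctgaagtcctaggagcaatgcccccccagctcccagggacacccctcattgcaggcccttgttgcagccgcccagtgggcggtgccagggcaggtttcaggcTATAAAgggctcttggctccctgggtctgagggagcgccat
Rora, chr9:68653536-68653785, plus strand: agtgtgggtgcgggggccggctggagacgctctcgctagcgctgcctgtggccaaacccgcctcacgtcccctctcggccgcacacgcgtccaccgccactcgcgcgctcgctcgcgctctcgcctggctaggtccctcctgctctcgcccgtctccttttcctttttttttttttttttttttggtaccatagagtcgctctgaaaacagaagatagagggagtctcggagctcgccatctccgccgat

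The RefSeq start of Cyp26b1 lies inside the GENCODE gene, so the stretch printed stops where that gene begins. The Cyp26b1 stretch holds a TATAAA and no half-site, and the Rora stretch holds none of these letters. Of 32851 mouse promoter windows of 250 bases, 12.4% hold TATAAA, 14.0% AGGTCA and 11.8% AGTTCA. Among the 14 windows of the members, 2 held AGGTCA, from Rarg and Rxra, and 2 held AGTTCA, from Rara and Vdr. Direct repeats of AGGTCA spaced by 1, 2 or 5 bases were in no window of a member, and in 11, 3 and 3 of all windows. A match or its absence in these windows is a description of letters only.

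In HFSCs the enzyme that breaks down retinoic acid was the member that stood farthest from WT. Cyp26b1 (chromosome 6, 84571414 to 84593908) encodes a cytochrome P450 that clears retinoic acid. It had 526 and 155 counts in the WT libraries and 0 and 6 in those labelled Msx2-KO. Scaled to 1 library size, the WT libraries stood at 429.7 and 307 normalized counts and the Msx2-KO libraries at 0 and 7.79, so the groups did not overlap. The mean in WT was 94.5 times the mean in Msx2-KO, and the fitted log2 fold change, which depends on the prior count because 1 library is at 0, was -6.75 ± 1.58 (SE, n = 2 per genotype). It was -5.57 if Msx2-KO replicate 1 is left out and -11.6 if replicate 2 is. In rank, Cyp26b1 lay above 91.2% and 86.3% of the 15337 genes measured in both cell types in WT HFSCs, and above 25.4% in the Msx2-KO library with counts. EpdSCs held little of it: the authors' normalized values were 1.08 and 9.48 for WT against 11.5 and 11.5 for Msx2-KO, where a single count is worth 0.674 to 1.27.

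Aldh1a3 (chromosome 7, 66390890 to 66427517) encodes a retinal dehydrogenase that makes retinoic acid. It was near the limit of detection in HFSCs, with 9 and 8 counts in the WT libraries (7.35 and 15.8 normalized) and 0 in both libraries labelled Msx2-KO. Against a floor of 3 counts per library, its mean was at least 3.93-fold lower in Msx2-KO. The groups did not overlap, on few counts.

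Dhrs3 (chromosome 4, 144892827 to 144928209) encodes a reductase that returns retinal to retinol and so limits the supply of retinoic acid. In HFSCs the WT libraries held 123 and 113 normalized counts of it and those labelled Msx2-KO 179 and 0. One library labelled Msx2-KO was thus above both WT libraries and the other had no count, and the log2 fold change of -0.38 ± 2.09 (SE) had no stable direction. Leaving out Msx2-KO replicate 1 gave -9.63 and leaving out replicate 2 gave 0.60. In EpdSCs the levels were 682 and 669 in WT against 33.1 and 505 in Msx2-KO, both lower, with a log2 fold change of -2.36 ± 1.48 (SE). The 2 libraries labelled Msx2-KO differed 15.3-fold from each other, against 1.02-fold between the WT libraries, and leaving out Msx2-KO replicate 1 gave -0.42.

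Crabp2 (chromosome 3, 87948666 to 87953376) encodes a small cytosolic protein that carries retinoic acid to its receptors. In HFSCs it was measured on few counts, 11 and 2 in WT against 14 and 30 in Msx2-KO. Normalized, WT stood at 8.99 and 3.96 and Msx2-KO at 9.33 and 39.0, both above WT but in one library by less than a single count is worth. In the same libraries the suprabasal markers Krt1 and Krt10 were also higher, Krt10 at 2469 and 9946 against 213 and 114. In EpdSCs Crabp2 stood at 143 and 102 in WT against 149 and 23.6 in Msx2-KO, and the groups overlapped.

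**Figure D2:**
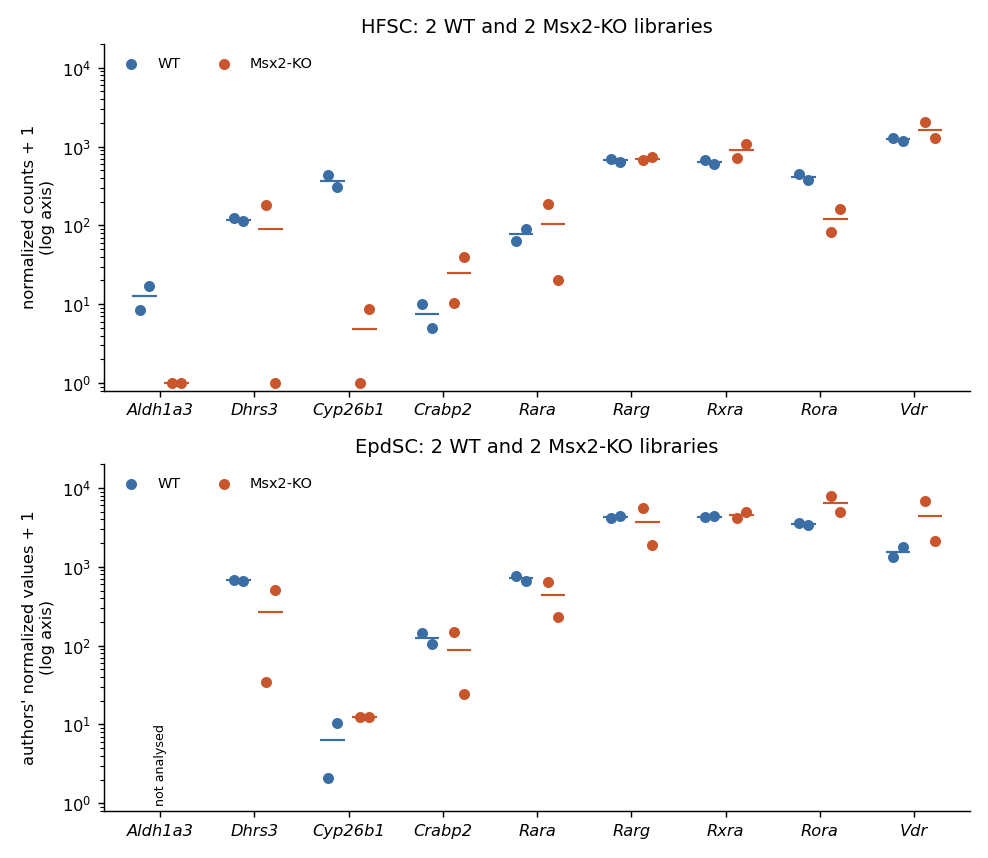
Level of each of the 9 genes in HFSCs (top, normalized counts plus 1) and EpdSCs (bottom, the authors' normalized values plus 1), on log axes; points are single libraries, short lines are group means, WT is blue and Msx2-KO orange. Cyp26b1 at 0 and 7.79 and Rora at 82.0 and 158 lie below both WT libraries in HFSCs, whereas Rora at 7891 and 4907 lies above both in EpdSCs.

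Among the receptors, Rora was the member that was lower in both HFSC libraries labelled Msx2-KO. Rora (chromosome 9, 68653786 to 69388246) encodes an orphan receptor known for its part in the molecular clock and in lipid metabolism. It stood at 446 and 374 normalized counts in WT against 82.0 and 158 in Msx2-KO, with no overlap. The WT mean was 3.41 times the Msx2-KO mean, and the log2 fold change was -1.77 ± 0.45 (SE, n = 2 per genotype). Against the other genes, Rora went from above 91.6% and 88.8% of them in WT to above 58.7% and 73.2% in Msx2-KO. Over the 12 alternative settings its log2 fold change ranged from -2.70 to -1.40 and kept its sign. An exon of Rora shares bases with Gm15511 on the opposite strand, and the sources used here do not say whether counting used strand.

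In EpdSCs Rora lay on the other side of WT. The authors' normalized values were 3545 and 3346 for WT against 7891 and 4907 for Msx2-KO, again with no overlap. The log2 fold change was 0.85 ± 0.52 (SE), on a scale on which the median of all 16231 genes was -0.64. In rank Rora moved little there, from above 97.2% and 96.9% of genes in WT to above 96.7% and 97.2% in Msx2-KO. In the same libraries the sorted integrin gene Itga6 (68397 and 32855 against 8229 and 9959) and the basal keratinocyte marker Krt14 (392157 and 275191 against 71869 and 84155) were higher, and the basal marker Itgb4 (183 and 1148 against 7432 and 11067) was lower.

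Rarg, the main retinoic acid receptor of keratinocytes, differed little between the HFSC libraries. It stood at 694 and 639 normalized counts in WT against 682 and 726 in Msx2-KO. The groups overlapped, and the log2 fold change was 0.08 ± 0.21 (SE). In EpdSCs Rarg (chromosome 15, 102234938 to 102257517) stood at 4133 and 4453 in WT against 5598 and 1878 in Msx2-KO. One library labelled Msx2-KO was above WT and the other below.

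Rara (chromosome 11, 98927818 to 98974942), which encodes the more widely expressed receptor, differed between the Msx2-KO libraries of HFSCs. It stood at 62.9 and 89.0 normalized counts in WT against 184 and 19.5 in Msx2-KO, 9.44-fold apart. In EpdSCs Rara was lower in both Msx2-KO libraries, at 634 and 228 against 773 and 661. The log2 fold change of -0.91 ± 0.71 (SE) was close to the median of all genes there, from which it differed by -0.27.

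Rxra (chromosome 2, 27676440 to 27762957), the shared partner of RAR and vitamin D receptors, was higher in both HFSC libraries labelled Msx2-KO, by little in one of them. It stood at 679.6 and 605 normalized counts in WT against 719 and 1072 in Msx2-KO, with a log2 fold change of 0.48 ± 0.29 (SE). In EpdSCs it stood at 4219 and 4444 in WT against 4149 and 4927 in Msx2-KO, and the groups overlapped.

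Vdr (chromosome 15, 97854425 to 97910630), the vitamin D receptor, which hair cycling needs after the first coat, was the member with the most counts in HFSCs. It stood at 1287 and 1169 normalized counts in WT against 2019 and 1265 in Msx2-KO. The lower Msx2-KO library lay between the 2 WT libraries. In EpdSCs it stood at 1316 and 1758 in WT against 6789.8 and 2117 in Msx2-KO, both higher, with a log2 fold change of 1.32 ± 0.78 (SE), or 0.48 if Msx2-KO replicate 1 is left out.

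The directions of 4 HFSC receptors depended on the scaling. With library totals in place of trimmed-mean scaling, the median over all HFSC genes moved from -0.14 to -1.002, and the values became -0.25 for Rara, -0.79 for Rarg, -0.43 for Rxra and -0.42 for Vdr. Relative to that median they were 0.76, 0.21, 0.58 and 0.58, close to the 0.57, 0.22, 0.62 and 0.56 that the same genes had relative to the median with trimmed-mean scaling. Cyp26b1, Aldh1a3 and Rora stayed negative in every setting in which they were tested. In EpdSCs library totals turned the sign of Rxra (-0.21).

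**Figure D3:**
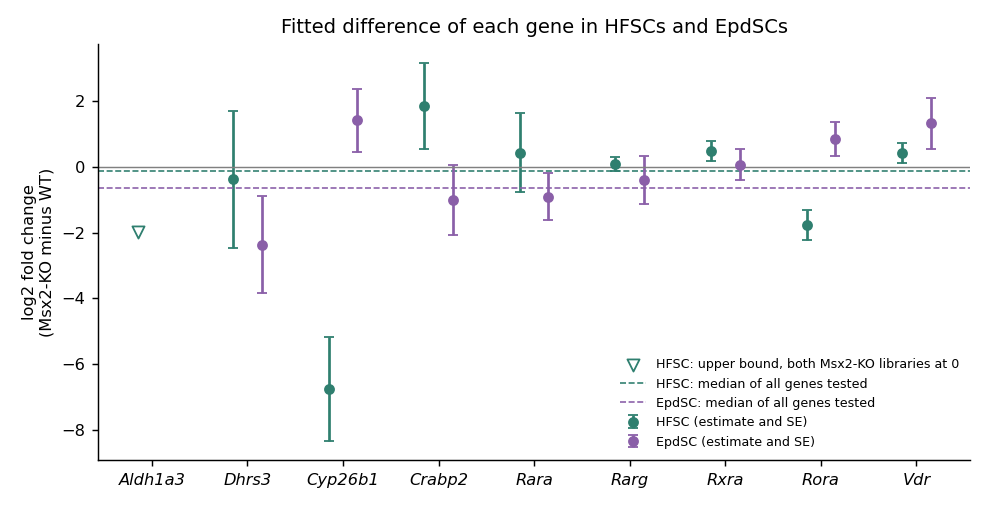
Fitted log2 fold change (Msx2-KO minus WT) of each gene with its standard error in HFSCs (green) and EpdSCs (purple); dashed lines mark the median of all genes tested, -0.14 and -0.64, and the open triangle gives the upper bound for Aldh1a3, whose Msx2-KO libraries are at 0. Rora lies at -1.77 in HFSCs and 0.85 in EpdSCs.

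None of the 9 members was called in HFSCs by edgeR's quasi-likelihood test (adjusted p under 0.05 and more than a 2-fold change), and the background was 0% of 14422 genes. At an unadjusted p under 0.05 with that fold change it passed 3 members (Aldh1a3, Cyp26b1 and Rora) and 17.2% of all genes. DESeq2 called 4.78% of the genes, 330 higher and 360 lower, with Cyp26b1 the 1 member among them. In 3 of the 9 members both Msx2-KO libraries lay below both WT libraries (Aldh1a3, Cyp26b1 and Rora), as they did in 33.5% of all genes tested, and in 2 (Crabp2 and Rxra) both lay above, as in 17.5%. In EpdSCs limma called 0 of the 8 members, against 9.35% of 16231 genes. At an unadjusted p under 0.05 with the same fold change it passed 35.3% of all genes and 0 members. On recovered counts edgeR called 0 genes in all, so its 0 members say nothing about the members. Both Msx2-KO libraries lay below WT for 2 of the 8 members (Dhrs3 and Rara), against 44.5% of all genes, and above WT for 3 (Cyp26b1, Rora and Vdr), against 27.8%. The members were chosen with such values known, so nothing is read from these counts.

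The make-up of the receptor transcripts could be compared within each library, since a ratio of 2 genes of 1 library does not depend on its scaling. Levels were divided by the length of the annotated exons, 4.37 kb for Rara, 4.26 kb for Rarg, 5.46 kb for Rxra, 13.1 kb for Rora and 5.65 kb for Vdr. Per kb, Rarg exceeded Rara in all 8 libraries, by 3.80-fold to 38.2-fold, and Rxra exceeded Rxrb, another RXR gene, in all 8, by 2.54-fold to 7.96-fold. Vdr exceeded Rarg in the 4 HFSC libraries (1.40-fold and 1.38-fold in WT, 2.23-fold and 1.31-fold in Msx2-KO) and in none of the EpdSC libraries, where the ratio was 0.24 and 0.30 in WT against 0.91 and 0.85 in Msx2-KO.

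As shares of the summed per-kb level of the 5 receptors, Vdr made 40.4% and 40.0% in WT HFSCs and 9.61% and 12.1% in WT EpdSCs. WT mice were 2 months old for HFSCs and 6 months for EpdSCs, so age and cell type cannot be told apart between these WT libraries. Rora made 6.06% and 5.54% in WT HFSCs, 0.899% and 1.997% in those labelled Msx2-KO, 11.2% and 9.93% in WT EpdSCs and 15.003% and 17.5% in those labelled Msx2-KO. Between the 2 WT libraries these shares were close in HFSCs, whereas in EpdSCs Rora and Vdr swapped ranks 3 and 4. Rxra differed more, between the Msx2-KO EpdSC libraries (18.9% and 42.0%). The order of the 5 receptors in both WT HFSC libraries was Vdr, Rarg, Rxra, Rora and Rara, and in the WT EpdSC libraries Rarg and Rxra led and Rara came last.

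**Figure D4:**
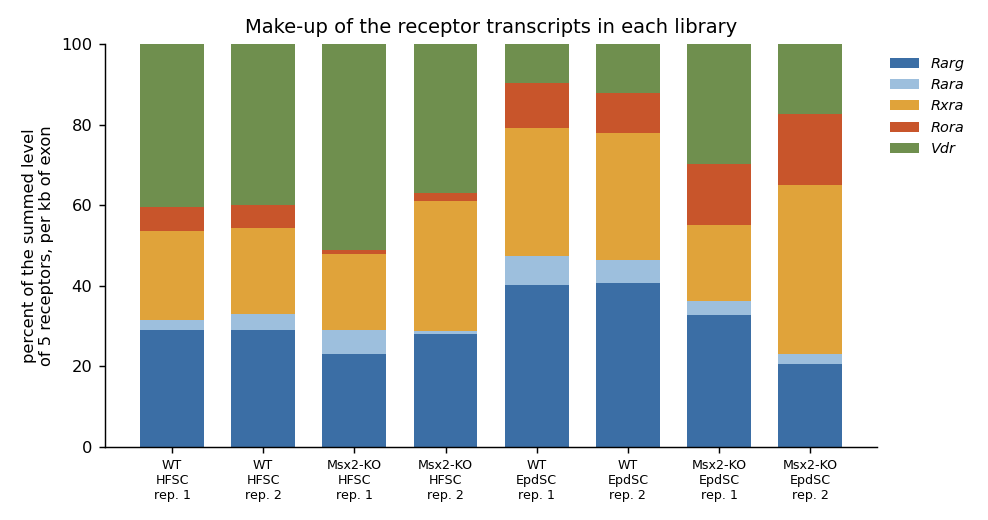
Share of each of 5 receptors in their summed level per kb of exon, in percent, for each of the 8 libraries (1 bar each). Vdr makes 40.4% and 40.0% of the bar in WT HFSCs (2 months of age) and 9.61% and 12.1% in WT EpdSCs (6 months). Rora is thinnest in Msx2-KO HFSCs, at 0.899% and 1.997%.

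Of 105 further genes of retinoid metabolism, vitamin D metabolism, nuclear receptors and their coregulators, 58 were tested in HFSCs and none was called by edgeR, 0% again being the background, while 12 (20.7%) passed at an unadjusted p under 0.05 with more than a 2-fold change, against 17.2% of all genes. DESeq2 called 4 of the 58, all higher, against 4.78% of all genes. Both Msx2-KO libraries lay above WT for 15 of the 58 (25.9%, against 17.5% of all genes) and below for 14 (24.1%, against 33.5%), and the median log2 fold change of 0.10, the same with genes at 0 set to their bound, stood beside -0.14 for all genes. The 4 largest differences upward among those with a mean of at least 50 and no overlap were in genes of transport and synthesis. Fabp5, a lipid-binding protein that can carry retinoic acid, stood at 12.8 and 21.7 normalized counts in WT against 2465 and 1670.0 in Msx2-KO (log2 fold change 6.94 ± 0.47, SE). Fabp5 has processed copies in the genome that could share its reads. Aldh1a1, another retinal dehydrogenase, stood at 0 and 3.96 against 275 and 31.2, the opposite order to Aldh1a3, and its log2 fold change of 6.51 ± 2.20 (SE) ranged from 4.41 to 10.4 if 1 library is left out. Sdr16c6 (4.08 and 5.93 against 205 and 203) and Sdr16c5 (9.80 and 5.93 against 175 and 119), relatives of the retinol dehydrogenases, were also higher in both libraries. The sebaceous gland markers, with sums of 220.4 and 211 against 7855 and 5897, were higher in the same libraries, and their part was not tested.

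Under the same rule, a mean of at least 50 and no overlap, the 4 largest differences downward in HFSCs included the mineralocorticoid receptor gene Nr3c2 (85.8 and 65.3 against 0 and 61.0). They also included the alcohol dehydrogenase Adh7 (482 and 362 against 163 and 252) and the clock receptor Nr1d2 (912 and 932 against 447 and 519.5). Nr1d2, which binds the same DNA elements as the ROR receptors, had a log2 fold change of -0.93 ± 0.22 (SE). Nr3c2 rested on 1 library, with -9.37 if Msx2-KO replicate 2 is left out and -0.35 if replicate 1 is. Genes with a lower mean fell outside the rule in both directions. Among them, chosen after their values were seen, Rdh1, Rdh5, Rdh10 and Lrat had 6.50 to 33.8 counts in the WT libraries and 0 in both Msx2-KO libraries. Pparg had 3 and 3 counts in WT against 154 and 39 in Msx2-KO. Of the coregulators, the corepressor Ncor1 stood at -0.06 ± 0.21 (SE).

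In EpdSCs 63 of the 105 genes were tested and 1 was called, 1.59% against a background of 9.35%. It was Rdh9, a retinol dehydrogenase, which the authors' table lists at values that round to 0 in both WT libraries and at 1100.1 and 208 in Msx2-KO (limma on log2(value + 1), adjusted p = 0.028, higher in 2 of 2 libraries). It was not called if either WT library was left out, and edgeR on recovered counts called no gene. Rdh9 belongs to a cluster of similar genes among which reads may be split. Among the 16 retinol and retinal oxidoreductases tested, Rdh9 included, both Msx2-KO libraries were above WT for 7 and below for 3. The shares of all genes were 27.8% and 44.5%. Of the other retinol dehydrogenases, Rdh1 stood at 13.6 and 7.47 against 40.7 and 27.6 and Rdh5 at 26.0 and 79.8 against 1.27 and 88.1. Both Msx2-KO libraries were above WT for 22 of the 63 genes (34.9%, against 27.8% of all genes) and below for 20 (31.7%, against 44.5%), and the median of -0.38 stood beside -0.64 for all genes. Chosen after their values were seen, Sdr16c6 (120.2 and 41.7 against 861 and 1056) and Fabp5 (1279 and 697 against 114773 and 4821) were higher here too. By contrast, Aldh1a1 (67.2 and 42.7 against 8.91 and 20.9) was lower, and the groups overlapped for Sdr16c5 (323 and 169 against 833 and 276). The sum of the sebaceous gland markers was higher in the same libraries (23826 and 10281 in Msx2-KO against 3881 and 4674 in WT). It was mostly Scd1, at 23465 and 9990 in Msx2-KO against 3585 and 4465 in WT. Of the 4 measured markers, Scd1 and Mgst1 were higher, Plin2 was lower and the groups overlapped for Far2. The part of these markers was not tested. Of the 9 known retinoic acid targets, 5 were tested in EpdSCs and none was called; Hoxa5 (300.0 and 287 against 2011 and 661), Rarres1 (837 and 589 against 3429 and 1316) and Rarres2 (5.73 and 5.18 against 149 and 15.8) were higher in both Msx2-KO libraries. In HFSCs 4 of the 9 were tested, and Tgm2 (7.35 and 1.98 against 10.7 and 74.0) was the 1 gene without overlap.

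**Figure D5:**
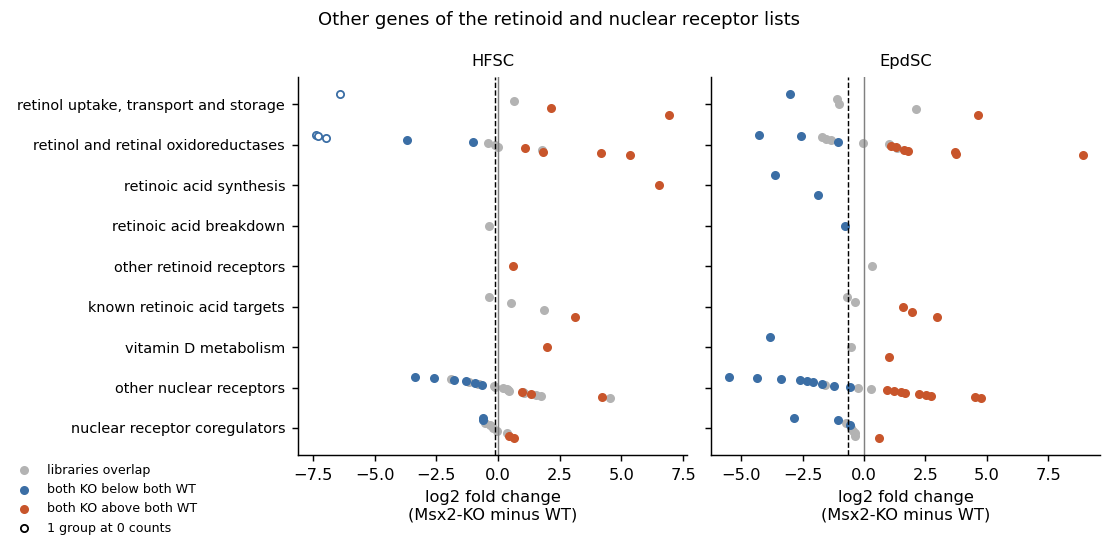
Fitted log2 fold change (Msx2-KO minus WT) of every tested gene of 9 lists of the pathway in HFSCs (left, 58 genes) and EpdSCs (right, 63 genes), 1 point per gene; colour shows whether both Msx2-KO libraries lie above (orange) or below (blue) both WT libraries, open points have a group at 0 counts, and the dashed line is the median of all genes. The retinol and retinal oxidoreductases extend to both sides in both cell types, and the median of all genes lies at -0.14 in HFSCs and -0.64 in EpdSCs.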

How the data were processed

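Bulk RNA-seq of sorted HFSCs and EpdSCs was analysed by cell type, because units differed between the 2 tables. Libraries were of total RNA and stranded. The authors used STAR 2.7.3a within Partek Flow, with GRCm38/mm10 and GENCODE genes. HFSC values were deposited as estimated counts, with reads that match several genes split into fractions. EpdSC values were deposited as a normalized signal, in which 1 count was worth 0.674 to 1.27 and 49.1% to 82.3% of values were whole multiples of it within 0.01. Intervals of counts would cover counting error only. The deposited comparisons of genotypes, with fold changes and p-values, were not used.

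For HFSCs, edgeR 4.0.16 gave a quasi-likelihood test of rounded counts, with TMM factors and its filter on low counts. Normalized counts refer to 6119092 counts per library. For EpdSCs, limma 3.58.1 was fitted to log2(value + 1). Called genes had an adjusted p (Benjamini-Hochberg) under 0.05 and over a 2-fold change. DESeq2 1.42.0, R 4.3.3, Python 3.11.15 and matplotlib 3.10.9 were also used, and fits were tested on simulated data. With 2 against 2 libraries an exact permutation test cannot go below p = 0.333, so p-values rest on the spread shared across genes. They measure the spread between these libraries, which may be technical.

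The members and gene lists were chosen with earlier results of these data known, so member values are a description, and counts of members that passed a test are printed beside the share or count of all genes that did. Named in the text are the members, Msx2, called genes of the pathway lists up to 8, and, where none was called, the 4 largest rises and falls among genes without overlap and with a mean of at least 50, apart from 1 gene that is not reported here. Marker genes were named where they stood beside a result. Some pathway genes were named outside the rule above, so their choice may follow their values, and not all of them are marked. Those without a mark include Ncor1, Rxrb, Hoxa5, Rarres1, Rarres2 and Tgm2, and Rdh1 and Rdh5 in EpdSCs. Gene lengths are summed exons of GENCODE genes on GRCm38. Same-numbered libraries did not deviate together (r = -0.04 in HFSCs and -0.02 in EpdSCs). Alternatives were other scalings, filters, pseudocounts and tools, a replicate block and each library left out.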

Additional observations from a re-analysis of the deposited data

Results flagged for a closer look

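In 2 members and 2 other genes of the pathway both Msx2-KO libraries lay on one side of both WT libraries in HFSCs and on the other side in EpdSCs, as they did in 16.5% of the 13151 genes tested in both cell types. The difference between the cell types was not tested. Rora had a log2 fold change of -1.77 in HFSCs and 0.85 in EpdSCs, and Cyp26b1 -6.75 and 1.41, the latter on a few counts. Adh7 had -1.03 in HFSCs and 1.81 in EpdSCs. Aldh1a1 had 6.51 in HFSCs and -1.89 in EpdSCs, with an HFSC range of 4.41 to 10.4 if 1 library is left out. Without Msx2-KO replicate 1 or 2 in turn, Cyp26b1 had -5.57 and -11.6 in HFSCs. WT mice were 2 months old in HFSCs and 6 months in EpdSCs, so age and cell type cannot be told apart in this contrast.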

How the results depend on the processing

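Counts of called genes depended on the tool and on single libraries. In HFSCs, where edgeR called 0 genes, DESeq2 called 690, limma-trend 1407, library totals 51, a minimum of 10 counts in every library 2 and the replicate block 231, and leaving out 1 library gave 132 to 9272. Members called were 1 (Cyp26b1) with DESeq2, library totals and the block, 2 with limma-trend (Aldh1a3 and Cyp26b1), and 0 to 4 without 1 library. Pathway genes called were 4, 6, 1, 1 and 2 with DESeq2, limma-trend, library totals, the count minimum and the block, and 1 to 33 without 1 library. In EpdSCs, where limma called 1518 genes, edgeR on recovered counts called 0, and leaving out 1 library gave 0 to 10376, with 0 without either WT library. Members called were 0 in each other setting and 0 to 3 without 1 library. Pathway genes called were 5 with a pseudocount of 10, 3 with a prior spread that follows the mean, 0 with edgeR and 0 to 38 without 1 library. The cause of these differences was not tested.

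The block also moved no EpdSC count by over 1.5 times. Its numbers are shared by library names only. Of the 9 members in HFSCs, 4 kept their sign in all settings in which they were tested, and of the 8 in EpdSCs, 5 did. In HFSCs Rara turned negative with limma-trend, library totals, the block and without Msx2-KO replicate 1, and spanned -1.96 to 1.30. Crabp2 and Rarg in EpdSCs turned positive (0.30 and 0.38) without Msx2-KO replicate 2. Depth limits Aldh1a3 and Crabp2 in HFSCs and Cyp26b1 in EpdSCs.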
